A study of Bos taurus with 9 samples.

Results

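Solute carriers (SLC) are the membrane proteins that move sugars, amino acids, ions, nucleosides, vitamins and metabolites across the plasma membrane and the membranes of organelles. The genes described here are those whose symbol has the form SLC, a family number, the letter A and a member number, and whose mean over the 9 libraries was at least 1 FPKM, a read level corrected for gene length and library depth. Of the 17162 genes in the deposited table, 292 had such a symbol and 176 reached the threshold. They were thus selected on the mean FPKM over all libraries, and no difference between groups was used. They were sorted by family into 11 substrate groups, and 5 of the 176 were set apart because their symbols name a neighbour or partner of a carrier.

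The libraries were poly-A RNA from cells grown from Holstein endometrium, the lining of the uterus, and the study describes the cells as primary endometrial epithelial cells (BEND) of wild-type genotype. All 9 cultures were kept in DMEM/F12 with fetal bovine serum, 3 untreated (CON), 3 given estradiol (E2, 1 nM) and progesterone (P4, 100 nM) (GA), and 3 given the same hormones and interferon tau (IFNT, 100 ng/mL) (GB). GB cells received the hormones for 12 h and then IFNT for a further 12 h. When CON and GA cells were collected is not given separately in the sources used here, so a difference in culture time and the effect of treatment cannot be told apart. The methods call the libraries biological replicates but do not tie them to separate animals, and p-values here measure the spread between these cultures.

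Solute carriers in the endometrium help to load the uterine lumen with glucose, amino acids and ions on which the ruminant conceptus depends before it attaches. At that time the conceptus secretes IFNT, a type I interferon, and cells answer it by transcribing interferon-stimulated genes. Many carriers do not sit at the cell surface. Members of the SLC25 family carry metabolites, nucleotides and cofactors across the inner mitochondrial membrane, and others work in lysosomes, the Golgi apparatus or vesicles.

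Each library held 14452 to 14893 genes above 0, and FPKM summed to between 1395622 and 1442723 per library. The sums of the GA libraries, at 1435457 to 1442723, were above those of all others. The defining markers of epithelium were near 0. None of 8 epithelial markers, keratins and E-cadherin among them, reached a mean of 1 FPKM, and their sum was 0.64 to 2.14 FPKM per library. The paper reports that the primary cells were positive for the protein of KRT18 (CK-18) by immunofluorescence, a measure unlike RNA. Mean KRT18 RNA over these libraries was 0.361 FPKM. All 8 markers of stromal fibroblasts were above that level, with sums of 16278 to 16862 FPKM in CON, 16495 to 16819 FPKM in GA, and in GB only 14753 to 14852 FPKM. RNA of the markers of the labelled cell type was thus absent or near 0. The fibroblast sum, carried mainly by VIM and collagens, was lower in every GB library than in any other. Its members did not move together. In 4 of the 8 (VIM, COL1A1, COL1A2 and COL3A1) all GB libraries lay below all others, and in 1, PDGFRA, above all others. DCN and LUM were higher in GB than in CON and lower than in GA, and PDGFRB was higher in GB than in GA and lower than in CON. Sums of 4 endothelial markers were 1.33 to 3.34 FPKM and sums of 4 immune markers 20.8 to 26.7 FPKM, most of the latter from CD14. The part of these markers in the results below was not tested, and in bulk RNA fewer cells of a type and less RNA per cell cannot be told apart.

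By level, the mitochondrial carriers stood first. The 37 SLC25 genes held 49.3% of the summed FPKM of the 176 genes, and SLC25A6, an ADP/ATP carrier, held 23.8% alone with a mean of 2139 FPKM. SLC25A3, the phosphate carrier of ATP synthesis, followed at 653 FPKM and SLC25A5, a second ADP/ATP carrier, at 375 FPKM. SLC25A4, SLC25A5 and SLC25A6 are close paralogs, and how their shared reads were divided is uncertain. Metal ion carriers held 15.0% of the sum, led by the copper importer SLC31A1 (228 FPKM), the zinc importer SLC39A1 (187 FPKM) and the heme carrier SLC48A1 (174 FPKM). Amino acid and peptide carriers held 11.9%, led by SLC38A2 (212 FPKM), a sodium-coupled carrier of neutral amino acids, the heavy chain SLC3A2 (129 FPKM) and the taurine carrier SLC6A6 (99.9 FPKM).

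Other groups were led by a single gene more often. The nucleoside carrier SLC29A1, at 179 FPKM, made up 80.2% of the 5 nucleoside and nucleobase genes, ahead of SLC43A3 (28.6 FPKM) and the lysosomal SLC29A3 (11.3 FPKM). The lactate and pyruvate carrier SLC16A1 (102 FPKM) made up 62.8% of the carboxylate group, with SLC16A11 (21.2 FPKM) and SLC16A5 (17.8 FPKM) next. Among sugar carriers the glucose carrier SLC2A3 stood highest at 94.1 FPKM, followed by SLC2A6 (44.3 FPKM) and SLC37A3 (29.4 FPKM). SLC5A1, the sodium-glucose cotransporter of absorptive epithelia, was listed at 0 in 8 libraries and at 0.05 FPKM in the library GB3, and is not among the 176.

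Phosphate importer SLC20A1 (158 FPKM), the potassium-chloride cotransporter SLC12A4 (91.0 FPKM) and the anion exchanger SLC4A2 (85.6 FPKM) led the inorganic ion carriers. The choline carriers SLC44A2 (125 FPKM) and SLC44A1 (101 FPKM) and the acetyl-CoA carrier SLC33A1 (45.4 FPKM) led the lipid group. SLC35A4 (78.3 FPKM), SLC35A5 (32.1 FPKM) and the UDP-galactose carrier SLC35A2 (25.5 FPKM) led the nucleotide sugar group, and the urea carrier SLC14A1 (39.2 FPKM), the vesicular nucleotide carrier SLC17A9 (24.9 FPKM) and the inositol carrier SLC5A3 (18.6 FPKM) the remaining organic ions. For vitamins the order was SLC52A2 for riboflavin (37.4 FPKM), SLC19A1 for folate (33.6 FPKM) and SLC23A2 for ascorbate (27.7 FPKM).

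Just above the threshold lay SLC29A4 (1.08 FPKM), SLC26A1 (1.06) and SLC25A34 (1.01), and just below it SLC17A7 (0.797 FPKM), SLC4A8 (0.777) and SLC25A41 (0.724). A mean of at least 1 FPKM was reached in each of CON, GA and GB by 166 members and in 2 of the groups by 9. SLC15A3 reached it in GB alone. All 176 entered the test.

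Groups were compared on log2(FPKM + 0.5) by limma over the 12578 genes with a mean of at least 0.5 FPKM, and p-values were adjusted over all of them by the Benjamini-Hochberg method. A gene is said to have risen or fallen when its adjusted p was under 0.05, and a differentially expressed gene (DEG) also had |log2FC| above 1. Errors of log2FC are standard errors, and errors of FPKM are SD of 3 libraries. The added constant makes log2FC too small for weakly expressed genes. GB vs. GA and GB vs. CON share the GB libraries, so their values stand side by side here and are not independent.

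Addition of IFNT to hormone-treated cells (GB vs. GA) left most carriers without a call. Of the 176 members 17 rose and 41 fell, and 118 did not pass the test. The rises were 9.66% of the members against 9.87% of all tested genes, and the falls 23.3% against 19.2%. As DEGs 4 were higher and 3 lower, against 2.66% and 0.978% of all tested genes. SLC15A3, which reached 1 FPKM in GB alone, is in these counts, and the other 175 members gave 16 rises and 3 higher DEGs. All GB libraries lay above all GA libraries in 13.6% of the members and 15.7% of all tested genes, and below them in 36.4% and 31.0%. The median log2FC was −0.11 in the members and −0.08 in all tested genes, and |log2FC| was under 0.5 in 155 members. With every library scaled to the same FPKM sum 20 members rose and 38 fell. With median-of-ratios scaling 25 members rose and 30 fell, so that rises made up 45.5% of the calls in place of 29.3%. Without any 1 of the GA or GB libraries the counts were lower, at 11 to 13 rises and 27 to 35 falls. Calls over all tested genes were then 2716 to 2935, against 1242 rises and 2409 falls with every library. A smaller group lowers all such counts, so these do not single out a library.

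Against untreated cells (GB vs. CON) 28 members rose and 42 fell. These were 15.9% and 23.9% of the members, against 16.2% and 17.3% of all tested genes. DEGs numbered 6 higher and 3 lower, where the shares of all tested genes were 2.94% and 1.07%. Without SLC15A3 there were 27 rises and 5 higher DEGs. All GB libraries lay above all CON libraries in 23.3% of the members and 22.2% of all tested genes, and below them in 30.7% and 23.9%. The median log2FC was −0.04 in the members and −0.02 in all tested genes. The study's sequencing statistics give a higher GC content of reads for every CON library than for any other. In this comparison GC content and treatment thus cannot be fully told apart. With that content as a covariate 7 members rose and 12 fell, and 6 of the 28 rises and 10 of the 42 falls kept their calls. Values for GB vs. CON below are without this covariate.

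**Figure D1:**
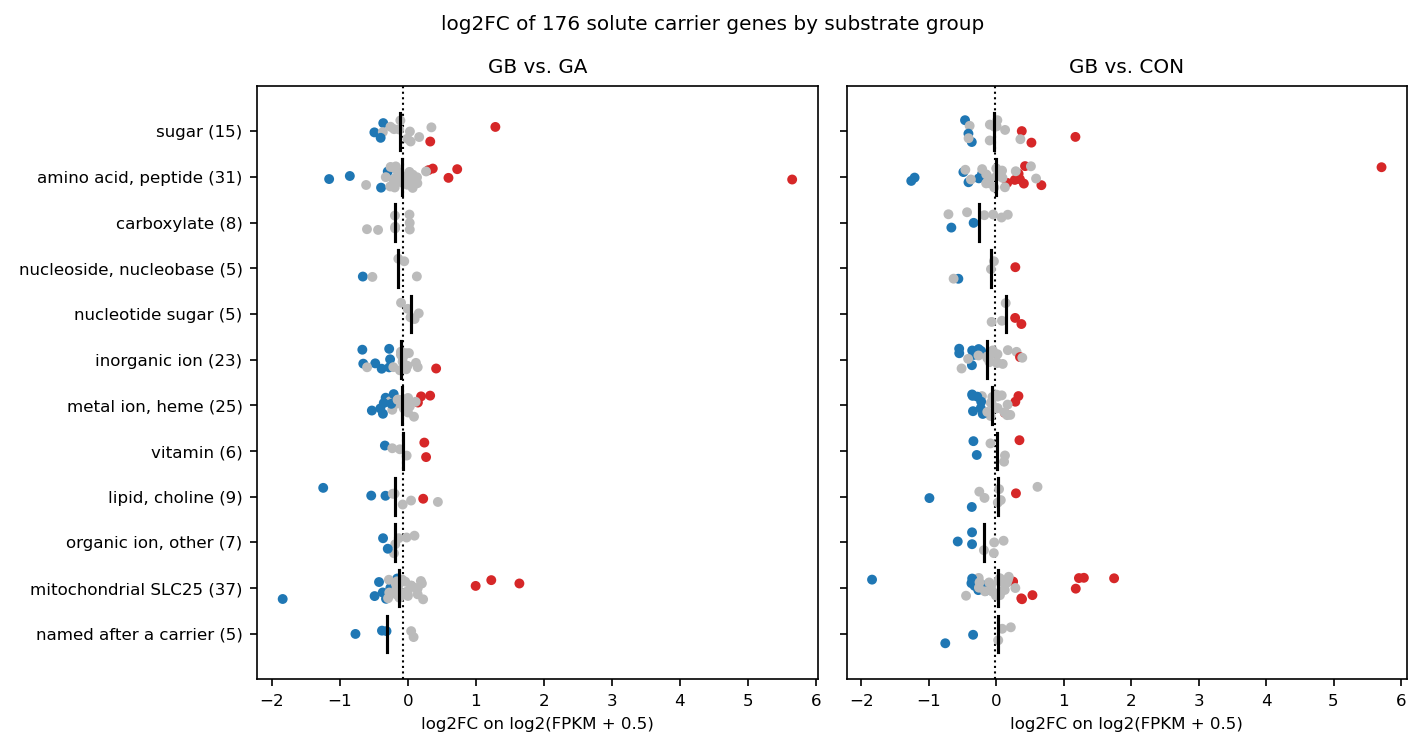
Each point is 1 of the 176 genes, placed by its log2FC on log2(FPKM + 0.5) and by substrate group, with the number of genes in brackets, for GB vs. GA on the left and GB vs. CON on the right. Red and blue points rose or fell at an adjusted p under 0.05 (limma), grey points did not pass, black bars are group medians and the dotted line is the median of all tested genes. Most points lie within 0.5 of 0, and SLC15A3 stands alone near 5.7 in the amino acid and peptide row.

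SLC15A3, a lysosomal carrier of histidine and small peptides, was measured at more than trace levels in GB alone. Its FPKM was 0.06, 0.23 and 0.27 in the CON libraries, 0.11, 0.37 and 0.17 in GA and 34.1, 36.2 and 35.2 in GB. It did not exceed 0.37 FPKM in any library without IFNT, and no GB library overlapped the others. Since only its GB libraries carried it past the thresholds on mean FPKM, it had to be higher in GB, and its difference is a description with no test. The log2FC was 5.65 in GB vs. GA and 5.71 in GB vs. CON. At so low a starting level the size of this difference depends on the constant added before the logarithm, and over all settings tried it ranged from 4.90 to 6.88 in GB vs. GA.

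Rises with narrow spread were found in mitochondrial carriers. SLC25A28 is mitoferrin-2, which brings iron into mitochondria for heme and iron-sulfur clusters. Its FPKM was 16.0, 15.8 and 14.6 in CON, 17.0, 17.8 and 15.3 in GA and 53.9, 53.5 and 51.89 in GB, with log2FC 1.64 ± 0.07 in GB vs. GA (adjusted p = 1.12e-07) and 1.75 ± 0.07 in GB vs. CON (adjusted p = 6.65e-08). All GB libraries lay above all others, and the CON and GA libraries overlapped.

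SLC25A30, a mitochondrial carrier first described in kidney, differed in that GA also lay above CON. Its FPKM was 16.5, 18.9 and 19.4 in CON, 23.7, 21.2 and 22.9 in GA and 46.5, 46.5 and 43.9 in GB. The log2FC of 1.3 ± 0.07 in GB vs. CON made it a DEG (adjusted p = 1.17e-06), and 1.00 ± 0.07 in GB vs. GA fell just short of the fold threshold (adjusted p = 8.83e-06). SLC25A21, which carries oxodicarboxylates of lysine breakdown, was a DEG in GB vs. CON only. Its FPKM was 0.52, 0.92 and 1.36 in CON, 1.71, 2.03 and 3 in GA and 2.23, 2.93 and 2.84 in GB, so that GA and GB overlapped and CON lay below both. Its log2FC was 1.18 ± 0.25 in GB vs. CON (adjusted p = 0.00618) and 0.95 ± 0.25 in GA vs. CON, which did not pass (adjusted p = 0.114). Without CON1 its GB vs. CON fold no longer exceeded the threshold, at log2FC 0.96, nor did it with an added constant of 1, and with read GC content as a covariate its call was lost (log2FC 0.82).

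SLC2A1 encodes GLUT1, a widely expressed facilitative glucose carrier that is among the carriers named in the study's introduction. Its FPKM was 18.1, 16.6 and 19.1 in CON, 17.9, 15.0 and 16.7 in GA and 41.2, 37.1 and 45.1 in GB. Every GB library was at 37.1 FPKM or more and no other exceeded 19.1 FPKM. The log2FC was 1.29 ± 0.09 in GB vs. GA (adjusted p = 8.25e-06) and 1.17 ± 0.09 in GB vs. CON (adjusted p = 1.49e-05), and the latter was 0.99 with read GC content as a covariate. In GB it remained below SLC2A3, whose levels were 94.0 ± 3.69, 93.2 ± 6.54 and 95.1 ± 3.02 FPKM in CON, GA and GB and did not pass the test in any comparison.

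**Figure D2:**
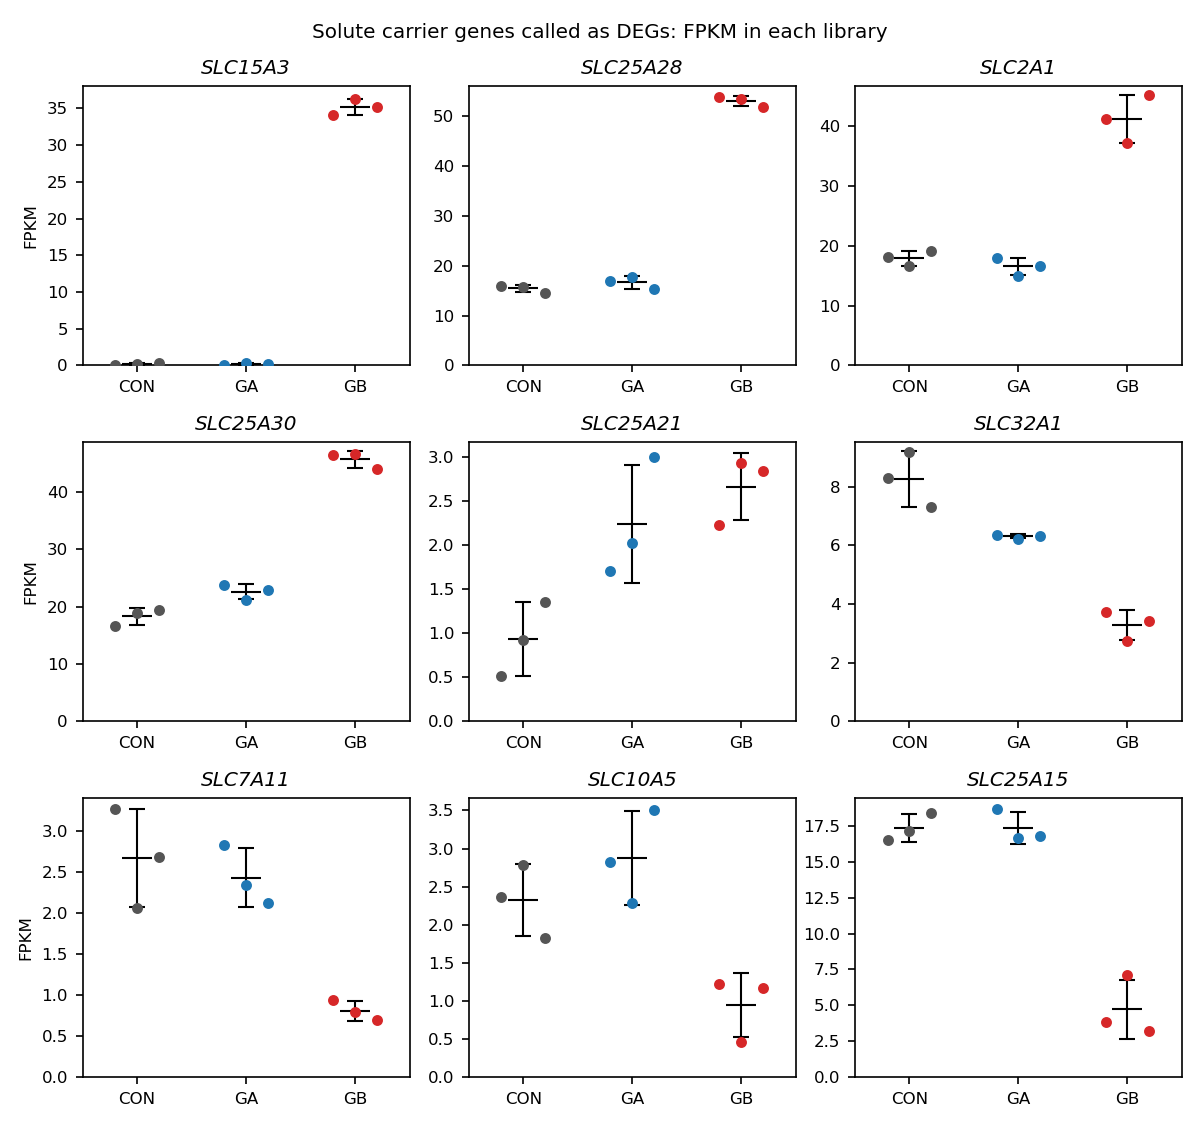
FPKM of 9 solute carrier genes called as DEGs in GB vs. GA or GB vs. CON, each panel with its own linear axis from 0. Points are single libraries of CON, GA and GB (3 each), and bars give the mean and SD. The first 4 panels show GB libraries clear above the rest, SLC25A21 shows GA overlapping GB, and the last 4 show GB libraries below the rest.

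4 members were DEGs in the lower direction in 1 or both of the GB comparisons. SLC25A15 exchanges ornithine and citrulline across the inner mitochondrial membrane and so links mitochondria to the urea cycle and to polyamine and proline metabolism. Its FPKM was 16.5, 17.1 and 18.4 in CON, 18.6, 16.6 and 16.8 in GA and 3.84, 7.09 and 3.24 in GB. The GB libraries were unlike each other, with GB2 the highest, yet all lay well below the rest. The log2FC was −1.84 ± 0.22 in GB vs. GA (adjusted p = 0.000268) and −1.84 ± 0.22 in GB vs. CON (adjusted p = 0.000229).

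SLC7A11, the light chain of the exchanger that takes up cystine for glutathione and releases glutamate, was low in all cells. It stood at 3.26, 2.06 and 2.68 FPKM in CON, 2.82, 2.34 and 2.12 in GA and 0.94, 0.79 and 0.70 in GB, with no overlap of GB with either group. The log2FC was −1.16 ± 0.18 in GB vs. GA (adjusted p = 0.00127) and −1.26 ± 0.18 in GB vs. CON (adjusted p = 0.000681). With a constant of 1 in place of 0.5 the former was −0.92, short of the fold threshold. SLC32A1, known as the vesicular carrier of GABA and glycine, was at 8.29, 9.18 and 7.30 FPKM in CON, 6.36, 6.23 and 6.33 in GA and 3.72, 2.73 and 3.43 in GB. The 3 groups did not overlap, and GA lay between the other groups. Its log2FC was −1.21 ± 0.12 in GB vs. CON (adjusted p = 7.3e-05), −0.85 ± 0.12 in GB vs. GA (adjusted p = 0.000809) and −0.36 ± 0.12 in GA vs. CON, which did not pass (adjusted p = 0.17). The GB vs. CON value was −0.94 with read GC content as a covariate.

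SLC10A5, a member of the bile acid carrier family, was the least certain of these. Its FPKM was 2.36, 2.78 and 1.83 in CON, 2.82, 2.28 and 3.51 in GA and 1.22, 0.47 and 1.17 in GB, lowest in GB2. The log2FC was −1.24 ± 0.25 in GB vs. GA (adjusted p = 0.00576) and −0.99 ± 0.25 in GB vs. CON (adjusted p = 0.015). Without GB2 the GB vs. GA value was −0.98 and the gene was no longer a DEG, and the GB vs. CON call was lost without CON2, with an adjusted p of 0.0516. With read GC content as a covariate the GB vs. CON call was lost too (log2FC −0.76, adjusted p = 0.395).

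Beyond SLC2A1, the sugar carriers shifted little. Of 15 genes 2 rose (13.3%) and 3 fell (20%) in GB vs. GA, and the median log2FC was −0.11. Over all tested genes the shares were 9.87% and 19.2%, with a median of −0.08, and in GB vs. CON 16.2% and 17.3%. Counts of this and the other substrate groups stand beside these shares, and no group was tested as a set. SLC2A6, a lysosomal member of the glucose carrier family, rose from 41.2 ± 3.69 FPKM in GA to 51.85 ± 1.91 in GB (log2FC 0.33 ± 0.07, adjusted p = 0.00565). SLC37A2 and SLC37A3, of the glucose-6-phosphate carrier family, fell. SLC37A2 went from 15.0 ± 1.86 to 10.4 ± 0.329 FPKM (log2FC −0.49 ± 0.10, adjusted p = 0.00616) and SLC37A3 from 31.7 ± 0.638 to 24.6 ± 1.41 FPKM (log2FC −0.36 ± 0.05, adjusted p = 0.00107). The sodium-glucose cotransporter SLC5A2 fell from 4.62 ± 0.371 to 3.37 ± 0.0493 FPKM (log2FC −0.40 ± 0.11, adjusted p = 0.0195), a call lost without any 1 of GA3, GB1 and GB3, with adjusted p of 0.0531 to 0.0716. In GB vs. CON 3 sugar carriers rose and 3 fell, the third rise being SLC37A1 at log2FC 0.52 ± 0.11 (adjusted p = 0.00727).

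Among the 31 amino acid and peptide carriers 8 rose and 6 fell in GB vs. CON (25.8% and 19.4%, against 16.2% and 17.3% of all tested genes). In GB vs. GA 5 rose and 4 fell (16.1% and 12.9%, against 9.87% and 19.2%). The rises besides SLC15A3, counted here too, were in carriers of glutamine, glycine and related neutral amino acids and in a shared heavy chain. SLC38A5, a sodium-coupled glutamine carrier, was at 18.2, 19.5 and 18.9 FPKM in CON, 18.2, 15.3 and 21.3 in GA and 29.6, 28.9 and 32.6 in GB (log2FC 0.73 ± 0.11, adjusted p = 0.000961 in GB vs. GA). The glycine carrier SLC6A9 rose from 22.0 ± 2.39 to 33.4 ± 1.80 FPKM (log2FC 0.60 ± 0.08, adjusted p = 0.000799), and SLC1A5, the exchanger ASCT2 for glutamine and other neutral amino acids, from 86.0 ± 4.53 to 106 ± 2.40 FPKM (log2FC 0.30 ± 0.06, adjusted p = 0.00346). SLC3A2, the heavy chain that pairs with the light chains of several SLC7 carriers, was at 124, 112 and 123 FPKM in CON, 119, 116 and 114 in GA and 148, 153 and 151 in GB (log2FC 0.37 ± 0.05, adjusted p = 0.000538 in GB vs. GA). In these 4 genes all GB libraries lay above all GA libraries, as in 15.7% of all tested genes.

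Of the SLC7 light chains that pair with SLC3A2, SLC7A11 fell as given above, and SLC7A6 (log2FC −0.14 ± 0.08) and SLC7A7 (−0.32 ± 0.28) did not pass in GB vs. GA. SLC7A5, the large neutral amino acid carrier LAT1, was at 53.0 ± 1.16 FPKM in CON, 48.5 ± 1.47 in GA and 45.7 ± 1.59 in GB. It did not pass in GB vs. GA (log2FC −0.08 ± 0.05, adjusted p = 0.224) and fell in GB vs. CON (log2FC −0.21 ± 0.05, adjusted p = 0.00835). The cationic amino acid carriers SLC7A1 and SLC7A2, which take up arginine, passed in no comparison. SLC7A1 was at 33.4 ± 0.565, 33.7 ± 1.28 and 35.5 ± 0.847 FPKM in CON, GA and GB (log2FC 0.07 ± 0.05 in GB vs. GA), and SLC7A2 at 6.86 ± 0.866, 7.24 ± 0.881 and 6.32 ± 0.295 FPKM (log2FC −0.18 ± 0.11).

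The other falls among amino acid carriers in GB vs. GA were SLC38A7, a lysosomal glutamine and asparagine carrier (log2FC −0.39 ± 0.07, adjusted p = 0.00212), and SLC38A1, a plasma membrane glutamine carrier (log2FC −0.29 ± 0.07, adjusted p = 0.011). Most abundant of the group, SLC38A2 was at 185, 187 and 190.0 FPKM in CON, 212, 217 and 237 in GA and 229.8, 227 and 224 in GB. GA and GB overlapped and both lay above CON. It rose in GB vs. CON (log2FC 0.28 ± 0.05, adjusted p = 0.00182) and did not pass in GA vs. CON (log2FC 0.24 ± 0.05, adjusted p = 0.0628). SLC6A6 rose in GB vs. CON (log2FC 0.16 ± 0.06, adjusted p = 0.0476), and that call was lost without any 1 of CON1, CON3, GA1, GA2, GA3, GB1, GB2 and GB3, with adjusted p of 0.0567 to 0.155.

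**Figure D3:**
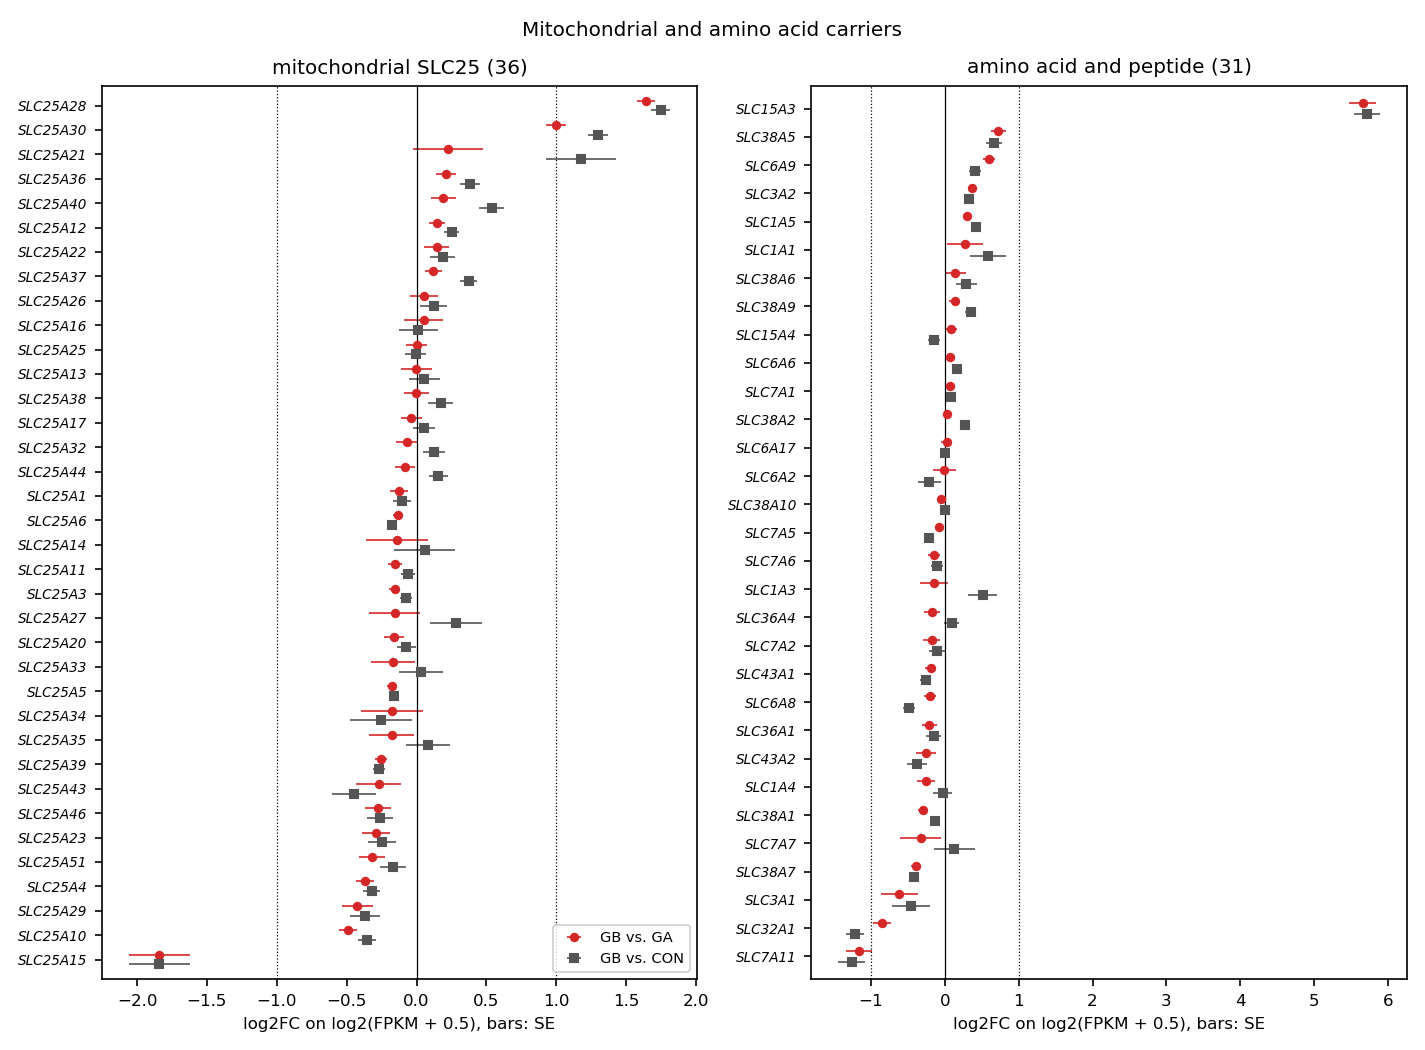
log2FC on log2(FPKM + 0.5) of 36 of the 37 mitochondrial SLC25 genes (left) and the 31 amino acid and peptide carriers (right), ordered by GB vs. GA. Red circles are GB vs. GA, grey squares GB vs. CON, bars are standard errors and dotted lines mark a log2FC of 1 in either direction. SLC25A28 and SLC25A30 stand apart at the top of the left panel and SLC25A15 at its foot.

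Of the 37 mitochondrial carriers 3 rose, SLC25A28 and SLC25A30 among them, and 10 fell in GB vs. GA, with a median log2FC of −0.14. These were 8.11% and 27% of the group, against 9.87% and 19.2% of all tested genes, whose median was −0.08. The balance within the group depended on scaling, since with median-of-ratios factors 7 rose and 5 fell. In GB vs. CON 8 rose and 7 fell (21.6% and 18.9%, against 16.2% and 17.3% of all tested genes). Apart from SLC25A15, the largest fall was in SLC25A10, which exchanges dicarboxylates such as malate and succinate for phosphate. Its FPKM was 28.3, 28.7 and 30.3 in CON, 31.9, 30.5 and 33.3 in GA and 24.2, 21.1 and 22.6 in GB (log2FC −0.49 ± 0.06, adjusted p = 0.000541 in GB vs. GA), without overlap between GB and GA.

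The abundant carriers of oxidative phosphorylation fell by small amounts. SLC25A6 was at 2215, 2278 and 2245 FPKM in CON, 2157, 2211 and 2183 in GA and 2005, 2019.7 and 1941 in GB, with log2FC −0.14 ± 0.03 in GB vs. GA (adjusted p = 0.0146). Its call was lost without GA2 or GB3, with adjusted p of 0.0621 and 0.0586, and with median-of-ratios factors or quantile normalization. SLC25A5 fell at log2FC −0.17 ± 0.04 (adjusted p = 0.00556), a call lost with median-of-ratios factors, and SLC25A4 at −0.37 ± 0.06 (adjusted p = 0.00217). SLC25A3 fell at log2FC −0.16 ± 0.04 (adjusted p = 0.0172) and lost its call without any 1 of GA1, GA3, GB1 and GB2, with adjusted p of 0.0528 to 0.0593, and also with median-of-ratios factors or quantile normalization.

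The other falls in GB vs. GA were the basic amino acid carrier SLC25A29 (log2FC −0.42 ± 0.11), the NAD carrier SLC25A51 (−0.32 ± 0.09), the glutathione importer SLC25A39 (−0.26 ± 0.04) and the oxoglutarate-malate carrier SLC25A11 (−0.15 ± 0.05). Of these SLC25A39 kept its call with each library left out. The call of SLC25A29 was lost without any 1 of GA2, GA3 and GB3, with adjusted p of 0.0619 to 0.068, that of SLC25A51 without any 1 of GA1, GA2, GA3, GB1 and GB3, with adjusted p of 0.053 to 0.109, and that of SLC25A11 without any 1 of GA1, GA2, GA3, GB1, GB2 and GB3, with adjusted p of 0.0778 to 0.133. In GB vs. CON the further rises were the pyrimidine nucleotide carrier SLC25A36 (log2FC 0.38 ± 0.07), SLC25A40 (0.54 ± 0.09), the aspartate-glutamate carrier SLC25A12 (0.25 ± 0.06) and mitoferrin-1, SLC25A37 (0.37 ± 0.06). SLC25A37 was at 91.2 ± 5.35 FPKM in CON, 109 ± 3.32 in GA and 118 ± 6.86 in GB. Its GB libraries overlapped those of GA, unlike in mitoferrin-2.

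Of the 25 carriers of metal ions and heme 3 rose (12%) and 7 fell (28%) in GB vs. GA. The counts were the same in GB vs. CON but not all of the genes, since SLC39A8 did not pass there. Over all tested genes the shares were 9.87% and 19.2% in GB vs. GA and 16.2% and 17.3% in GB vs. CON. The falls in the group included members of both zinc carrier families, SLC39 (ZIP) and SLC30 (ZnT). SLC39A9 was at 29.1, 32.9 and 32.5 FPKM in CON, 34.9, 35.8 and 36.4 in GA and 24.2, 25.2 and 24.3 in GB, the largest fall of the group (log2FC −0.53 ± 0.06, adjusted p = 0.000167 in GB vs. GA). SLC30A9 was at 32.2, 32.3 and 32.0, 36.6, 36.7 and 38.0 and 26.8, 28.0 and 29.1 FPKM in the same order (log2FC −0.40 ± 0.05, adjusted p = 0.000319). In both genes GA lay above CON and GB below it, with no overlap among the 3 groups.

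SLC39A14 (log2FC −0.37 ± 0.08) and SLC39A13 (−0.35 ± 0.06) also fell in GB vs. GA. The copper importer SLC31A1 fell from 243 ± 12.6 FPKM in GA to 194 ± 7.71 in GB (log2FC −0.33 ± 0.05, adjusted p = 0.00167), and the iron exporter ferroportin, SLC40A1, from 49.4 ± 0.930 to 42.7 ± 1.60 FPKM (log2FC −0.21 ± 0.05, adjusted p = 0.00834). The magnesium carrier SLC41A2 fell (log2FC −0.24 ± 0.07, adjusted p = 0.0325), a call lost without any 1 of GA2, GA3, GB2 and GB3, with adjusted p of 0.0516 to 0.11. With median-of-ratios factors 5 of the group fell in place of 7.

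The 3 rises among metal carriers were small. SLC39A8, which imports zinc and manganese, was at 5.52, 4.44 and 5.25 FPKM in CON, 4.63, 4.60 and 4.58 in GA and 5.88, 5.98 and 5.87 in GB (log2FC 0.33 ± 0.09, adjusted p = 0.0276 in GB vs. GA). The zinc exporter SLC30A1 rose from 40.1 ± 1.60 to 46.0 ± 1.26 FPKM (log2FC 0.20 ± 0.05, adjusted p = 0.0163) and SLC39A1 from 179 ± 6.41 to 199 ± 3.36 FPKM (log2FC 0.15 ± 0.04, adjusted p = 0.0184). All these calls were lost with some library left out, that of SLC39A8 without any 1 of GA1, GA2, GA3, GB1, GB2 and GB3, with adjusted p of 0.0645 to 0.0744, that of SLC30A1 without GA3 or GB3, with adjusted p of 0.0607 and 0.0588, and that of SLC39A1 without any 1 of GA2, GB1 and GB2, with adjusted p of 0.059 to 0.0738. SLC48A1 was at 157 ± 12.3 FPKM in CON, 199 ± 21.2 in GA and 166 ± 17.7 in GB. It passed in no comparison.

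Of 23 inorganic ion carriers 1 rose (4.35%) and 7 fell (30.4%) in GB vs. GA. The counts were the same in GB vs. CON but not all of the genes, since SLC24A5 and SLC9A5 did not pass there. Over all tested genes the shares were 9.87% and 19.2% in GB vs. GA and 16.2% and 17.3% in GB vs. CON. With median-of-ratios factors 2 of the group rose and 4 fell in GB vs. GA. SLC20A1, the sodium-coupled phosphate importer, was at 158, 173 and 163 FPKM in CON, 167, 174 and 169 in GA and 138, 146 and 139 in GB, with GB below both (log2FC −0.27 ± 0.05, adjusted p = 0.00201 in GB vs. GA). The sodium-proton exchanger SLC9A5 fell most, though from a level near 1 FPKM (1.23, 1.52 and 1.60 in GA against 0.73, 0.67 and 0.77 in GB), with log2FC −0.67 ± 0.19 and adjusted p = 0.0263. The calcium exchanger SLC24A5 was at 5.45, 4.33 and 6.68 FPKM in CON, 7.41, 6.98 and 9.83 in GA and 3.66, 5.12 and 6.20 in GB, so that CON and GB overlapped (log2FC −0.65 ± 0.21, adjusted p = 0.0425 in GB vs. GA). The call of SLC9A5 was lost without any 1 of GA2, GA3, GB1, GB2 and GB3, with adjusted p of 0.0533 to 0.0847, and that of SLC24A5 without any 1 of CON1, GA1, GA2, GA3, GB1 and GB2, with adjusted p of 0.0557 to 0.143.

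Further falls of this group in GB vs. GA were the anion exchanger SLC4A3 (log2FC −0.48 ± 0.12) and SLC26A11 (−0.38 ± 0.10). SLC4A3 kept its call with each library left out, and SLC26A11 lost it without any 1 of GA3, GB1 and GB3, with adjusted p of 0.0676 to 0.0814. The potassium-chloride cotransporter SLC12A7 was the 1 rise, from 4.67, 4.13 and 5.32 FPKM in GA to 6.12, 6.35 and 6.81 in GB (log2FC 0.42 ± 0.10, adjusted p = 0.0146), and its call was lost without GA2 or GB3, with adjusted p of 0.0521 and 0.0533. The abundant SLC12A4 (−0.10 ± 0.06) and SLC4A2 (−0.03 ± 0.05) did not pass.

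**Figure D4:**
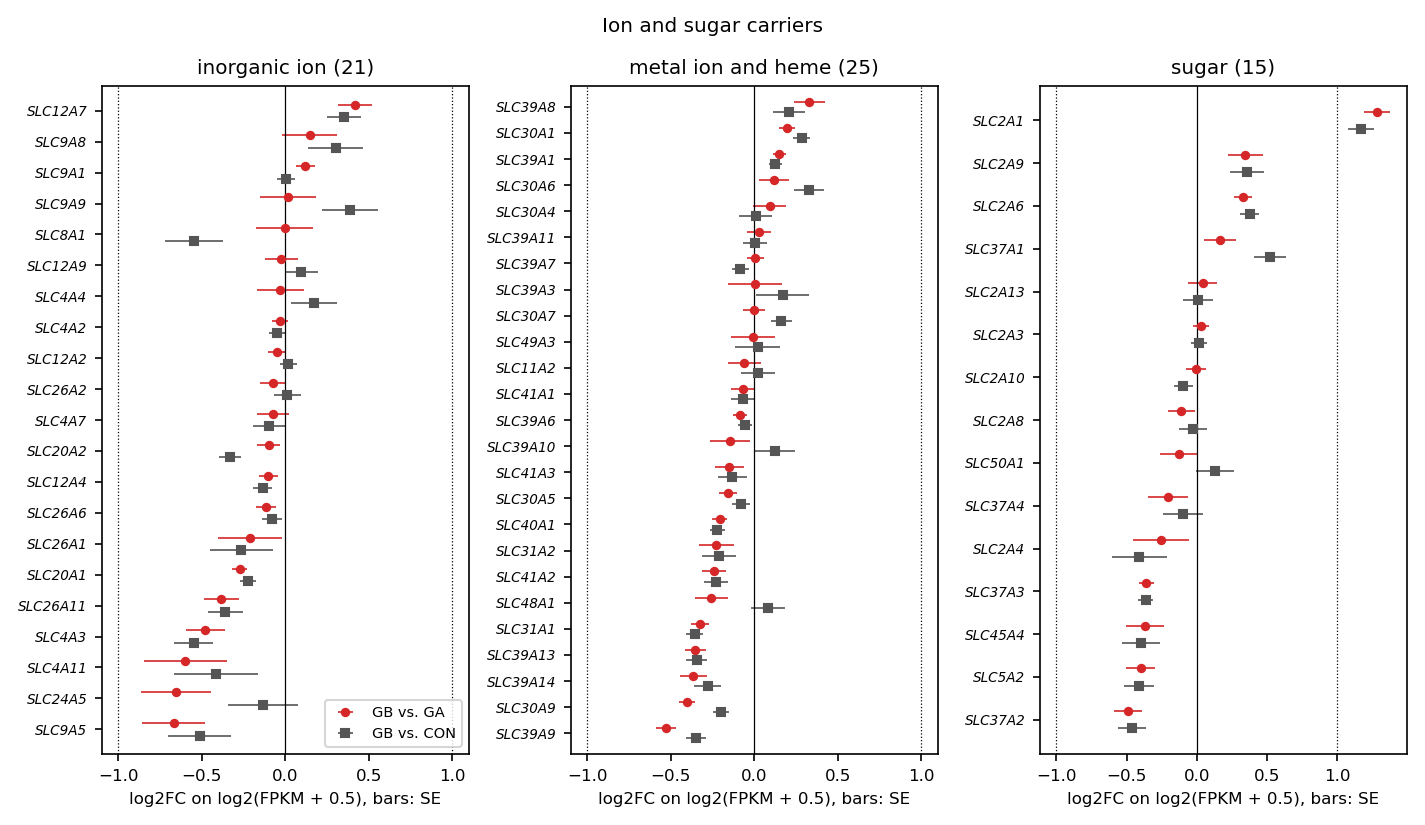
log2FC on log2(FPKM + 0.5) of 21 of the 23 inorganic ion carriers, the 25 metal ion and heme carriers and the 15 sugar carriers, ordered in each panel by GB vs. GA. Red circles are GB vs. GA, grey squares GB vs. CON, bars are standard errors and dotted lines mark a log2FC of 1 in either direction. SLC2A1 is the 1 gene of the 3 panels beyond the dotted lines.

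Of the 5 nucleoside and nucleobase carriers 1 fell in GB vs. GA. This was SLC29A2, the equilibrative nucleoside carrier ENT2, at 4.22, 3.25 and 3.05 FPKM in CON, 3.69, 3.74 and 3.85 in GA and 1.66, 3.09 and 2.02 in GB (log2FC −0.66 ± 0.19, adjusted p = 0.0283 in GB vs. GA). The GB libraries spread widely and the call was lost without any 1 of GA1, GA2, GA3, GB1 and GB3, with adjusted p of 0.0657 to 0.0901. ENT1, SLC29A1, was at 179 ± 4.06, 181 ± 4.40 and 175 ± 6.74 FPKM in CON, GA and GB and passed in no comparison (log2FC −0.05 ± 0.04 in GB vs. GA). SLC43A3 did not pass either (−0.14 ± 0.06). SLC29A3 rose in GB vs. CON (log2FC 0.28 ± 0.09, adjusted p = 0.0457), which did not hold without any 1 of CON1, CON2, CON3, GA1, GA2, GA3, GB1 and GB2, with adjusted p of 0.0516 to 0.148.

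None of the 5 nucleotide sugar carriers and none of the 8 carboxylate carriers passed in GB vs. GA (limma), with 1 of each at an unadjusted p under 0.05. These were SLC35A4 (log2FC 0.16 ± 0.06, adjusted p = 0.065) and the lactate exporter SLC16A3 (log2FC −0.44 ± 0.15, adjusted p = 0.0607). Under some of the alternatives, such as a fit of only GA and GB, 1 nucleotide sugar carrier rose and 1 carboxylate carrier fell. In GB vs. CON SLC35A3, which carries UDP-N-acetylglucosamine, rose (log2FC 0.37 ± 0.10, adjusted p = 0.0208), as did SLC35A5 (log2FC 0.28 ± 0.08, adjusted p = 0.0301). The call of SLC35A3 was lost without any 1 of CON1, CON2 and GB3, with adjusted p of 0.055 to 0.0628, and that of SLC35A5 without any 1 of CON1, CON2, GB1, GB2 and GB3, with adjusted p of 0.0639 to 0.0861. SLC16A1 was at 95.0 ± 7.03, 105 ± 3.22 and 107 ± 4.02 FPKM in CON, GA and GB and passed in no comparison. SLC16A3 fell in GB vs. CON, from 10.4, 8.97 and 6.93 FPKM in CON to 4.58, 5.14 and 6.21 in GB (log2FC −0.67 ± 0.15, adjusted p = 0.0094), and SLC16A11 fell too (log2FC −0.34 ± 0.08, adjusted p = 0.014), a call lost without GB2, with an adjusted p of 0.0512. The call of SLC16A11 was also lost with read GC content as a covariate (log2FC −0.45, adjusted p = 0.122).

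Among 9 carriers of lipids, choline and acetyl-CoA 1 rose and 3 fell in GB vs. GA, SLC10A5 among them. SLC44A1 was at 108, 109 and 114 FPKM in CON, 106, 107 and 109.9 in GA and 81.8, 84.7 and 90.5 in GB (log2FC −0.33 ± 0.05, adjusted p = 0.00102 in GB vs. GA), while SLC44A2, the other abundant choline carrier, did not pass (log2FC 0.05 ± 0.04). SLC27A4, of the fatty acid transport family, fell from 5.72 ± 0.526 to 3.78 ± 0.237 FPKM (log2FC −0.54 ± 0.12, adjusted p = 0.00823). It did not pass in GB vs. CON or in GA vs. CON. SLC33A1 rose (log2FC 0.23 ± 0.07, adjusted p = 0.0362), a call lost without any 1 of GA1, GA2, GA3, GB1, GB2 and GB3, with adjusted p of 0.0564 to 0.105. SLC10A7 was at 32.3 FPKM in GB2 and between 7.59 and 17.1 FPKM in the other libraries, and it passed in no comparison.

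Of 6 vitamin carriers 2 rose and 1 fell in GB vs. GA. The riboflavin carrier SLC52A2 fell from 40.7 ± 1.90 to 32.1 ± 2.13 FPKM (log2FC −0.34 ± 0.06, adjusted p = 0.0032). SLC5A6, for biotin and pantothenate, rose (log2FC 0.24 ± 0.08, adjusted p = 0.0445) and SLC19A1, for folate, rose (log2FC 0.27 ± 0.09, adjusted p = 0.0494), both close to the threshold. The first call was lost without any 1 of CON3, GA1, GA2, GA3, GB1, GB2 and GB3, with adjusted p of 0.059 to 0.142, and the second without any 1 of CON3, GA1, GA2, GB1, GB2 and GB3, with adjusted p of 0.0617 to 0.138. Of 7 carriers of other organic solutes the inositol carrier SLC5A3 fell from 20.1 ± 0.574 to 15.5 ± 0.784 FPKM (log2FC −0.36 ± 0.06, adjusted p = 0.0028) and SLC22A17, a receptor for lipocalin-2, from 9.20 ± 0.167 to 7.41 ± 0.333 FPKM (log2FC −0.29 ± 0.08, adjusted p = 0.0193), a call lost without any 1 of GA2, GA3, GB1 and GB3, with adjusted p of 0.0532 to 0.0649.

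The 5 genes whose symbols only resemble carriers were measured alike. SLC2A4RG, a regulator of the SLC2A4 gene, fell from 34.2 ± 1.37 to 26.2 ± 0.202 FPKM in GB vs. GA (log2FC −0.38 ± 0.06, adjusted p = 0.00108). The scaffold SLC9A3R2 fell from 8.63 ± 2.07 to 4.76 ± 0.0833 FPKM (log2FC −0.77 ± 0.16, adjusted p = 0.00732), while its relative SLC9A3R1 did not pass (log2FC 0.05 ± 0.09), nor did SLC4A1AP (0.09 ± 0.07). SLC7A6OS, on the strand opposite SLC7A6, fell (log2FC −0.31 ± 0.10, adjusted p = 0.0363), a call lost without any 1 of GA1, GA2, GA3, GB1, GB2 and GB3, with adjusted p of 0.0636 to 0.107. Whether strand was used in the counting is not given, so reads of SLC7A6OS and SLC7A6 may not be told apart.

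Hormones without IFNT (GA vs. CON) gave no call among the 176 members with limma in either direction, against 0.246% of all tested genes higher and 0.207% lower. DEGs were 0.0318% (higher) and 0.0398% (lower) of all tested genes, and 0 of the members. At an unadjusted p under 0.05 there were 34 members, 19.3% of them, and the same share of all tested genes. All GA libraries lay above all CON libraries in 18.2% of the members and 18.6% of all tested genes, and below them in 5.68% and 6.13%. The median log2FC was 0.04 in the members and 0.06 in all tested genes. The smallest adjusted p belonged to SLC38A2, given above. SLC22A15, an organic ion carrier picked here for its values, was at 12.3, 12.1 and 13.1 FPKM in CON, 10.3, 8.41 and 9.71 in GA and 7.85, 8.30 and 8.58 in GB. CON lay above both treated groups, with log2FC −0.39 ± 0.09 in GA vs. CON (adjusted p = 0.084) and −0.57 ± 0.09 in GB vs. CON (adjusted p = 0.000986). With median-of-ratios factors or quantile normalization it was the 1 member to fall in GA vs. CON, at adjusted p of 0.0496 and 0.0429. Every CON library had a higher read GC content than any other. In GA vs. CON too, GC content and treatment thus cannot be fully told apart. With that content as a covariate, 0 of all tested genes passed in GA vs. CON.

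Genes that work with solute carriers were listed separately by function. Their counts in GB vs. GA stand beside 9.87% of all tested genes that rose and 19.2% that fell. Of 40 tested carriers with other symbol forms 3 rose and 8 fell in GB vs. GA. SLC51B, a subunit of the organic solute transporter that exports bile acids and steroids, was the 1 DEG, at 5.32, 12.1 and 12.9 FPKM in CON, 9.05, 11.9 and 9.37 in GA and 21.6, 20.6 and 30.4 in GB (log2FC 1.21 ± 0.30, adjusted p = 0.014 in GB vs. GA). Without GB3 its adjusted p was 0.0517. Both subunits of the mitochondrial pyruvate carrier fell. MPC1 went from 472 ± 8.01 to 371 ± 20.7 FPKM (log2FC −0.35 ± 0.05, adjusted p = 0.000647) and MPC2 from 385 ± 8.86 to 264 ± 30.8 FPKM (log2FC −0.55 ± 0.11, adjusted p = 0.00457).

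Of 12 partners, chaperones and regulators of carriers 3 rose and 3 fell in GB vs. GA, with a median log2FC of 0.01. The most abundant was BSG, the partner that takes SLC16A1 and SLC16A3 to the cell surface (1464 ± 23.5 FPKM in GA and 1315 ± 22.9 in GB), and it did not pass (log2FC −0.16 ± 0.06). ARL6IP5, which restrains glutamate uptake, rose (log2FC 0.23 ± 0.05, adjusted p = 0.00606). None of the 5 tested subunits of the Na,K-ATPase, whose sodium gradient drives many carriers, passed in GB vs. GA (limma), 0 had an unadjusted p under 0.05, and log2FC was −0.09 ± 0.07 for FXYD5, a regulatory subunit.

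Among 10 tested genes of iron handling 2 rose and 2 fell in GB vs. GA. The ferritin heavy chain FTH1 fell from 4312 ± 129.6 to 3591 ± 65.1 FPKM (log2FC −0.26 ± 0.05, adjusted p = 0.00336), and the light chain FTL did not pass (log2FC −0.15 ± 0.05). Of 15 genes of the amino acid response, the program in which ATF4 raises carriers and synthetic enzymes when amino acids run low, 5 rose and 1 fell. The fall was in ASNS, from 72.7 ± 2.48 to 59.0 ± 1.39 FPKM (log2FC −0.30 ± 0.07, adjusted p = 0.0087). DDIT3, TRIB3, CHAC1, PHGDH and PSPH were among those that did not pass. ATF3 was the 1 DEG, at 26.5, 21.5 and 25.2 FPKM in CON, 19.7, 23.0 and 29.4 in GA and 52.4, 57.2 and 58.4 in GB (log2FC 1.22 ± 0.13, adjusted p = 0.000165 in GB vs. GA). NUPR1 rose from 479 ± 13.6 to 699.7 ± 104 FPKM (log2FC 0.53 ± 0.10, adjusted p = 0.00291), and ATF4 itself was at 328 ± 10.5 FPKM in GA and 334 ± 5.27 in GB and did not pass (log2FC 0.02 ± 0.05). The other rises were in SESN2, CTH and CEBPB. SESN2 went from 15.4 ± 0.854 to 28.1 ± 2.03 FPKM (log2FC 0.85 ± 0.07, adjusted p = 3.62e-05). CTH (log2FC 0.30 ± 0.09, adjusted p = 0.0322) and CEBPB (log2FC 0.45 ± 0.14, adjusted p = 0.0393) lost their calls with some libraries left out.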

How the data were processed

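Per the labels, RNA of 9 cultures was sequenced as poly-A libraries, and the groups CON, GA and GB (3 libraries each) come from the sample titles and treatments. The authors trimmed reads with fastp (v0.21.0), removed rRNA reads with Bowtie2 (v2.33), aligned the rest with HISAT2 (v2.2.1) to ARS-UCD1.2 and counted with RSEM (v1.3.3), as given in the submitters' processing notes. The deposited table gives the authors' FPKM of each gene in each library to 2 decimals. The annotation release is not given in the sources used here, nor is the strand setting. For their own test the authors used DESeq2 (v1.34.0) on read counts. The deposited table holds FPKM, so depth in reads is not known from it and no count test was run. FPKM is a share of a library's reads, and a large change in abundant genes shifts all others slightly.

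Values were used as log2(FPKM + 0.5). Group means were fitted to all 9 libraries with limma 3.58.1 (trend of variance on mean) in R 4.3.3 to the 12578 genes with a mean of at least 0.5 FPKM. The p-values were Benjamini-Hochberg adjusted over all of them. Thresholds were an adjusted p of 0.05 and, for DEGs, |log2FC| above 1 as in the study. With 3 libraries against 3, an exact permutation test cannot give a p under 0.1. The procedure was tested on simulated data, and no result of that is reported here. Figures were drawn with matplotlib 3.10.9.

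Named are members that are DEGs in any comparison, the 3 of highest mean FPKM in each substrate group, and members next to the threshold. So are the 2 largest rises and 2 largest falls of a group in GB vs. GA. Of the carriers that the study introduces, SLC2A1, SLC5A1, SLC7A1 and SLC7A2 are named. From each list of related genes, DEGs and at most 2 further genes by mean FPKM are named. Other members and listed genes are named to complete a count and were chosen after their values were seen. The members, groups and lists were chosen with earlier results of these data known. A total of 11 alternative settings and 9 fits with 1 library left out were run. Some genes that the rule names are not reported here and are left out of the plots with gene names. Sequences and coordinates were not used here.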

Additional observations from a re-analysis of the deposited data

How the results depend on the processing

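Calls of members at an adjusted p under 0.05 kept to within 1.5 times of the main counts in GB vs. GA under all 11 alternatives, and in GB vs. CON under all but read GC content as a covariate, where 7 members rose and 12 fell. Over all tested genes 1472 were called in GB vs. CON with that covariate, against 2034 rises and 2178 falls without it. Every CON library had a higher GC content than any other, so this fit cannot fully separate it from treatment. The cause was not tested. With that covariate SLC35A5 turned from log2FC 0.28 to −0.0195 in GB vs. CON (adjusted p = 0.941). With a pseudocount of 1, 1 member was a lower DEG in GB vs. GA in place of 3, since a larger constant shrinks the folds of low genes. In GA vs. CON 1 member fell with median-of-ratios factors and 1 with quantile normalization, and 0 otherwise. With 1 library left out, GB vs. GA gave 11 to 20 rises, 27 to 45 falls, 4 to 5 higher DEGs and 2 to 3 lower DEGs. GB vs. CON gave 22 to 27 rises, 36 to 43 falls, 5 to 6 higher DEGs and 3 to 4 lower DEGs, and GA vs. CON gave 0 to 0 of each. Calls kept with each library left out were 10 of 17 rises and 26 of 41 falls in GB vs. GA, and 21 of 28 and 30 of 42 in GB vs. CON. Same-numbered libraries of different groups correlated at −0.031 to 0.077 in their deviations from the group means, so the numbers are not taken to pair them. With the replicate number as a block 15 members rose and 38 fell in GB vs. GA, 28 rose and 43 fell in GB vs. CON, and 0 passed in GA vs. CON. Reads per gene are not known, and folds of members near 1 FPKM are the least precise.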

Other observations

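Over all tested genes 9.87% rose and 19.2% fell in GB vs. GA, and 16.2% and 17.3% in GB vs. CON. Among 20 tested ATP-binding cassette (ABC) transporters, which pump substrates with ATP and are not solute carriers, 4 rose and 5 fell in GB vs. GA (limma, Benjamini-Hochberg adjusted p under 0.05), and 7 rose and 5 fell in GB vs. CON. TAP1 and TAP2, which together move peptides into the endoplasmic reticulum for loading onto MHC class I, were the DEGs of GB vs. GA. TAP1 was at 6.44, 6.81 and 7.79 FPKM in CON, 6.58, 6.27 and 6.95 in GA and 191, 188 and 196 in GB (log2FC 4.76 ± 0.07, adjusted p = 1.62e-10). TAP2 was at 20.4, 20.6 and 19.9 FPKM in CON, 21.1, 21.1 and 22.1 in GA and 81.5, 78.3 and 78.4 in GB (log2FC 1.86 ± 0.05, adjusted p = 2.7e-09). In both genes all GB libraries lay above all others, and GA and CON overlapped in TAP1 but not in TAP2, where GA stood slightly higher without passing the test (log2FC 0.08 ± 0.05, adjusted p = 0.385).

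The drug efflux pump ABCB1 rose from 44.3 ± 0.542 FPKM (SD of 3 libraries) in GA to 55.2 ± 3.04 in GB (log2FC 0.31 ± 0.05, adjusted p = 0.00211). ABCD4, a lysosomal transporter of vitamin B12 metabolism, was a DEG in GB vs. CON (log2FC 1.41 ± 0.41, adjusted p = 0.0261). Its CON libraries, at 97.0, 27.9 and 40.8 FPKM, overlapped its GB libraries, at 119, 93.0 and 189.8 FPKM. That call was lost without any 1 of CON2, CON3, GB1 and GB3, with adjusted p of 0.0549 to 0.0883, with only CON and GB fitted (adjusted p = 0.0601), and with read GC content as a covariate (log2FC 0.07, adjusted p = 0.964).

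In GA vs. CON no ABC transporter passed (limma), with 4 at an unadjusted p under 0.05. CEBPB, a transcription factor of the amino acid response, was the 1 gene of the lists of related genes to pass there. It was at 194, 177 and 187 FPKM in CON, 115, 94.2 and 95.2 in GA and 143, 109 and 168 in GB, without overlap between CON and GA (log2FC −0.88 ± 0.14, adjusted p = 0.0392 in GA vs. CON). Its call was lost in 10 of the 20 alternative settings, with adjusted p of 0.0651 to 0.533.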
